A study of Mus musculus with 4 samples.

Results

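Interferon-stimulated genes are the genes that cells switch on when an interferon binds its receptor. Type I interferons signal through Ifnar1 and Ifnar2 and the kinases Jak1 and Tyk2, which activate STAT proteins. STAT2 and IRF9 belong to a complex that binds the interferon-stimulated response element (ISRE), whereas the response to interferon-gamma runs through the gamma-activated site (GAS). Macrophages are strong responders to both signals, and their guanylate-binding proteins and immunity-related GTPases are classical products of interferon-gamma. The 39 genes described here were chosen by name from the deposited count table of 54532 mouse genes: 4 transcription factors, 4 nucleic acid sensors, 2 genes of the ISG15 system, 16 antiviral effectors, 8 guanylate-binding proteins and 5 immunity-related GTPases. All 39 were found in the table and all 39 passed the expression filter.

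The study asked how myeloid Syk shapes tumor-associated macrophages (TAMs). Mice on a C57BL/6 background, 4 to 6 weeks old, received subcutaneous NB9464 cells, a murine neuroblastoma line with amplified MYCN, and TAMs were collected on day 40 with no treatment given. The SYK KO genotype comes from floxed Syk crossed with LysM-Cre, which is driven by the lysozyme gene Lyz2 and therefore acts across the myeloid lineage rather than in TAMs alone, and the SYK WT mice were the matching controls. PolyA-selected RNA from cells taken with CD11b and F4/80 magnetic beads gave 2 libraries labelled SYK WT (M7 and M8) and 2 labelled SYK KO (M9 and M10). The labels do not say whether the libraries came from separate animals, so p-values cover the spread between these libraries, which may be technical. The labels name TAMs as the isolated cells but BMDMs (bone marrow-derived macrophages) as the source of the RNA, and the sample description refers to adoptive transfer, which left the exact experiment unclear.

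Total counts ran from 20755886 to 23518045, and a signal of 3 counts, used here as the floor of detection, was worth 0.109 to 0.164 CPM (counts scaled by each library total after TMM normalization). That floor covers counting error only. Syk, the targeted gene, was read at 27.9 and 23.2 CPM in M7 and M8 and at 196 and 160 CPM in M9 and M10, a log2 fold change of 2.80 ± 0.19 (value ± standard error, SE, with an adjusted p = 0.000674 by edgeR's quasi-likelihood test). Relative to all transcripts Syk therefore went against the labels, and every direction below is that of the libraries as labelled. The change of Syk was about as large as the median of the 10 macrophage markers (2.82). Counts are per gene and do not show the floxed part of Syk by itself. Lyz2, the gene that drives the Cre, was at 296 and 208 CPM in the SYK WT libraries and at 8.64 and 20.2 CPM in the libraries labelled SYK KO. The 10 macrophage markers summed to 1131 and 784 CPM in M7 and M8 and to 8843 and 5603 CPM in M9 and M10. The 8 fibroblast markers ran the other way, from 12689 and 14596 CPM to 4094 and 5029 CPM, so their sum exceeded that of the macrophage markers in both SYK WT libraries. Such sums depend on the genes listed and do not measure the share of each cell type. Mitochondrial transcripts took 2.20% and 2.34% of counts in M7 and M8 but 6.00% and 15.9% in M9 and M10.

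Relative to all transcripts, interferon-stimulated genes stood higher in the libraries labelled SYK KO. The summed level of the 39 genes was 812 and 574 CPM in M7 and M8 and 1948 and 1326 CPM in M9 and M10, so that both libraries labelled SYK KO lay above both SYK WT libraries. Of the 39 genes, 24 rose with an adjusted p under 0.05 (61.5%), against 22.7% of the 16451 genes tested. Ifi44 alone fell (2.56%, against 16.7% of all genes), and 14 genes did not pass. The median log2 fold change was 1.48 over the 39 genes and 0.016 over all genes tested, with a range from -1.75 (Ifi44) to 3.77 (Gbp8). The libraries labelled SYK KO both lay above the SYK WT libraries for 32 genes (background 38.0% of all genes) and both below for 3 genes (background 37.2%), and the groups overlapped for 4. Because 2 libraries against 2 allow no exact two-sided permutation p below 0.333 for a single gene, each adjusted p depends on the spread that edgeR estimated over all genes together.

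Relative to macrophage transcripts the direction turned. All 10 macrophage markers rose, and their median of 2.82 on the log2 scale was larger than the 1.48 of the interferon-stimulated genes. When libraries were scaled to the geometric mean of those 10 markers, none of the 39 members was called higher by edgeR (background 0.894%), and none was at an unadjusted p under 0.05 either, while 21 fell (background 86.4%). The median of the members was then -1.23, above the median of -2.69 over all genes. Scaled to 6 pan-leukocyte genes, edgeR again called no member higher, also by the unadjusted p (background 0.304%), and 35 fell (background 93.0%), with a median of -2.19 against -3.65 over all genes. With library size as the only scaling, 18 members rose (background 10.2%) and 3 fell (Stat2, Mx2 and Ifi44, background 32.9%). The DESeq2 Wald test called 26 members higher (background 18.9%) and 1 lower (background 15.3%). In bulk RNA, fewer cells of one type cannot be told apart from less RNA per cell, and the part that the proportion of macrophages played in these results was not tested. A scaling shifts every member by a similar amount and leaves their order nearly as it was, and that order is described next by role.

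**Figure D1:**
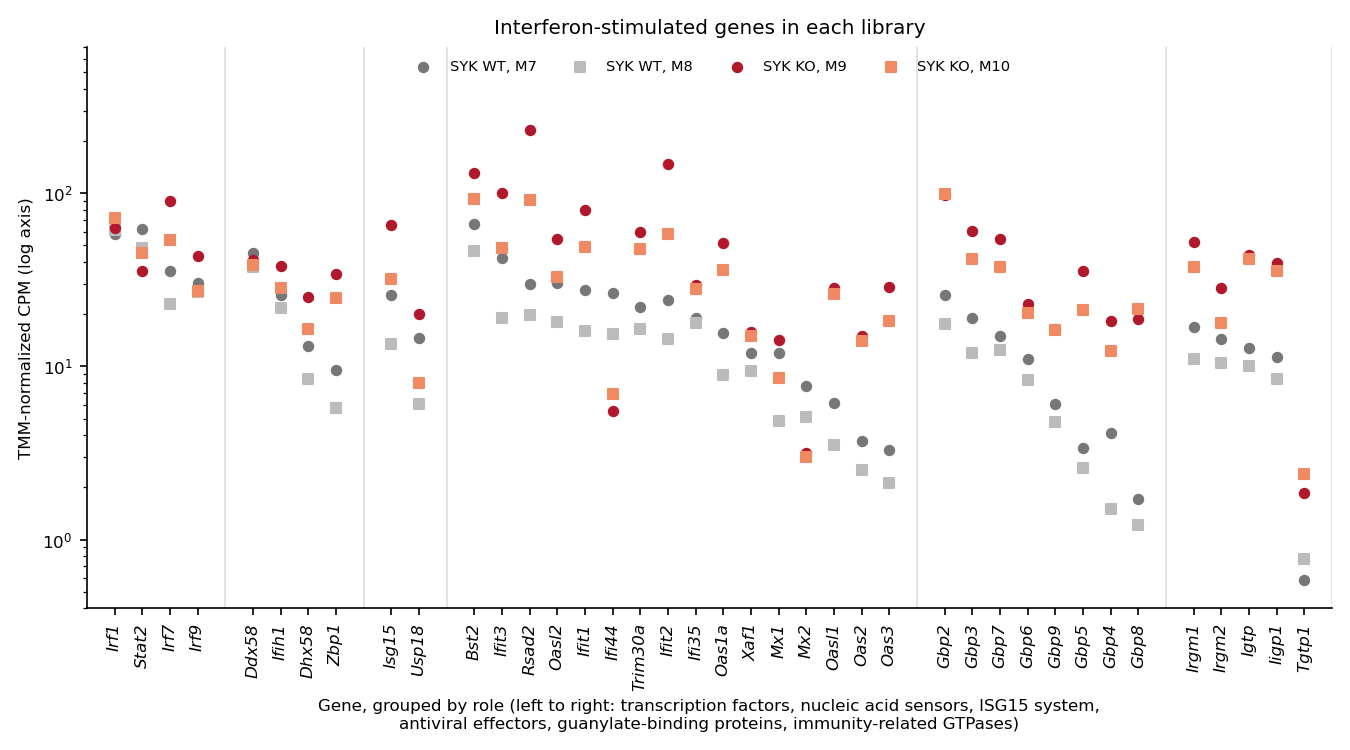
TMM-normalized CPM (log axis) of the 39 interferon-stimulated genes in each of the 4 libraries, grouped by role, with grey for SYK WT and red for the libraries labelled SYK KO. The red points lie above the grey points for 32 genes and below them for Stat2, Mx2 and Ifi44.

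**Figure D2:**
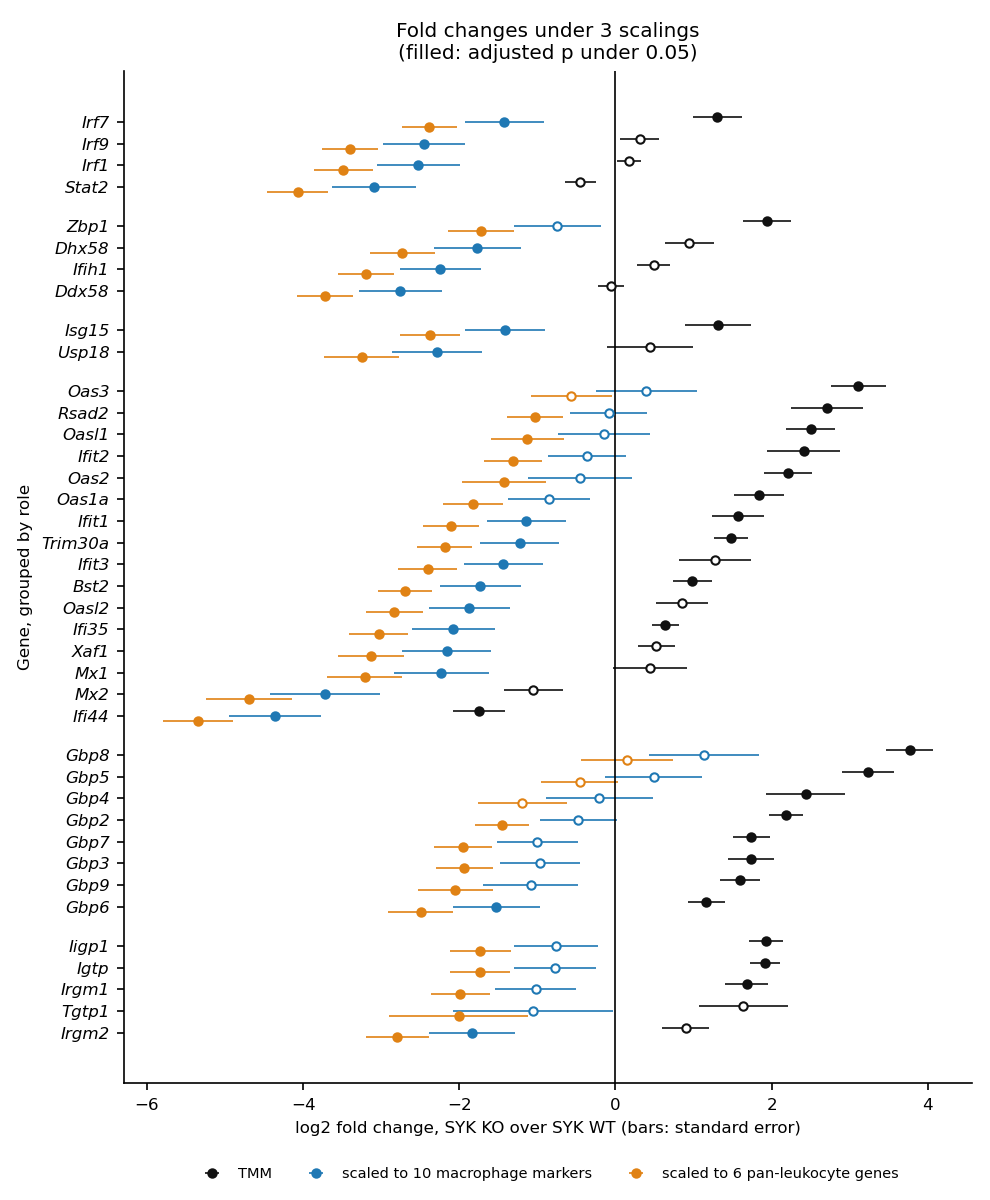
Log2 fold change (libraries labelled SYK KO over SYK WT, bars are standard errors) of each member with TMM scaling, with scaling to 10 macrophage markers and with scaling to 6 pan-leukocyte genes; filled points have an adjusted p under 0.05. The median of the 39 genes moves from 1.48 to -1.23 and -2.19, while Gbp8 remains at the upper end and Ifi44 at the lower end of the members.

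Many of the promoter windows hold the letters that interferon-activated factors read, and some are shown here because the members are grouped by them further on. RefSeq promoter windows on GRCm38.p6, 250 bases before to 50 bases after the start, were matched by symbol for 28 of the 39 genes. The ISRE core was searched as GAAA, any 2 bases and GAAA on both strands, and it was found in 19 of the 28 windows (67.9%), against 1079 of 27025 windows of all genes (3.99%). A stricter form, in which CT follows the second GAAA, was found in 11 windows (39.3%), against 0.303% of all windows. GAS was searched as TTC, any 3 bases and GAA, which reads the same on both strands, and it was found in 10 windows (35.7%), against 9.55% of all windows. All 4 guanylate-binding protein windows, all 4 immunity-related GTPase windows and 7 of the 13 antiviral effector windows held the ISRE letters, whereas 1 of the 4 transcription factor windows (Stat2) did. Ifi44, Irf7, Irf9, Oasl1, Oasl2 and Xaf1 held neither the ISRE nor the GAS letters. A match is a description of letters and not a measured binding site. In the following 80-base stretches, written 5′ to 3′ on the strand of the gene, capitals mark the ISRE letters nearest the start.
Isg15 (chr4:156200840-156200919, minus strand): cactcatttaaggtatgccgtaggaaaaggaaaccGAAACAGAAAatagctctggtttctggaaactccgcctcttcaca
Ifit1 (chr19:34640769-34640848, plus strand): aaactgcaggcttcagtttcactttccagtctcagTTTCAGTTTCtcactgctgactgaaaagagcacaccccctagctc
Rsad2 (chr12:26456528-26456607, minus strand): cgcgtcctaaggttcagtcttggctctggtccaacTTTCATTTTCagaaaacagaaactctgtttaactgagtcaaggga
Oas3 (chr5:120777690-120777769, minus strand): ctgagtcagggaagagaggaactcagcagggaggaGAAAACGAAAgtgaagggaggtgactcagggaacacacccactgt
Gbp5 (chr3:142496734-142496813, plus strand): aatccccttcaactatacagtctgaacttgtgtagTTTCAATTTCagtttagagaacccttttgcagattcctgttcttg
Gbp7 (chr3:142530248-142530327, plus strand): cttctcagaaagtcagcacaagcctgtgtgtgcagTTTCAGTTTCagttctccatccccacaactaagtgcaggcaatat
Stat2 (chr10:128270248-128270327, plus strand): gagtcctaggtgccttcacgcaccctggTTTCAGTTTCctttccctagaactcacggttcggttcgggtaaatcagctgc

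Among the immunity-related GTPases, 1 of the 3 pairs of windows compared was nearly identical around these letters. The windows of Igtp and Irgm2 were identical at 67 of 69 bases aligned on the ISRE letters without gaps, whereas Tgtp1 matched Igtp at 42 and Irgm2 at 44 of the 69 bases. Irgm1 was not aligned.
Igtp (chr11:58199476-58199555, plus strand): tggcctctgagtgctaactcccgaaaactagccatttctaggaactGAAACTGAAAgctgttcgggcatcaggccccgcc
Irgm2 (chr11:58214878-58214957, plus strand): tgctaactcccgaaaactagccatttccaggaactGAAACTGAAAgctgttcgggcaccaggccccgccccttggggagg
Tgtp1 (chr11:48992279-48992358, minus strand): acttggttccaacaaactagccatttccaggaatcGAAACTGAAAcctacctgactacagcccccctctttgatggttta

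Irf1, whose window held the GAS letters but not the ISRE letters, is shown for contrast with capitals on the GAS letters.
Irf1 (chr11:53769904-53769953, plus strand): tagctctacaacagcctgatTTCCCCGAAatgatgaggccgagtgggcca

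The 4 transcription factors had the smallest median of the 6 role groups with TMM scaling, with 1 of 4 called (25%, near the 22.7% of all genes) and a median log2 fold change of 0.24 (-2.49 with macrophage scaling). Irf7, the factor that amplifies type I interferon production (chromosome 7, 141262706 to 141266481), was at 35.7 and 22.9 CPM in M7 and M8 and at 90.8 and 54.0 CPM in M9 and M10. Both libraries labelled SYK KO lay above both SYK WT libraries, with a log2 fold change of 1.30 ± 0.32 (SE, adjusted p = 0.0201). The call for Irf7 was lost with library size only (0.78, adjusted p = 0.120). Its log2 fold change was 1.01 without M8 and 0.79 without M9. For fits with a library left out, only the change is given here. Irf1, which is itself induced through GAS and activates many genes of this list (chromosome 11, 53770014 to 53778374), was at 58.0, 61.3, 63.0 and 71.7 CPM in M7, M8, M9 and M10. Its groups did not overlap, but the difference was small at 0.17 ± 0.15 (SE, adjusted p = 0.403). Stat2, a subunit of the ISRE-binding complex (chromosome 10, 128270559 to 128292849), was at 62.2 and 48.5 CPM in the SYK WT libraries and at 35.8 and 45.2 CPM in the libraries labelled SYK KO. Stat2 lay lower in the libraries labelled SYK KO without passing the test (log2 fold change -0.45 ± 0.20 SE, adjusted p = 0.121). Stat2 was called lower with library size only (-1.0, adjusted p = 0.0115), and its change was -0.62 without M10 and -0.26 without M7. Irf9, the DNA-binding subunit of that complex (chromosome 14, 55603571 to 55610030), was at 30.3, 26.9, 43.5 and 27.3 CPM in M7, M8, M9 and M10, and the groups overlapped (log2 fold change 0.31 ± 0.25 SE, adjusted p = 0.357). Irf9 stood at 0.62 without M10 and at -0.15 without M9.

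Among the nucleic acid sensors, 1 of 4 genes was called (25%, again near the 22.7% of all genes), with a median log2 fold change of 0.72 (-2.01 with macrophage scaling). Zbp1, a sensor of Z-form nucleic acids that can trigger cell death (chromosome 2, 173206612 to 173218923), was at 9.59 and 5.78 CPM in the SYK WT libraries and at 34.2 and 24.9 CPM in the libraries labelled SYK KO. The groups were far apart, with a log2 fold change of 1.94 ± 0.31 (SE, adjusted p = 0.00527). The RNA sensor Ddx58 (RIG-I, chromosome 4, 40203773 to 40239828) was at 45.4 and 37.7 CPM in M7 and M8 and at 41.2 and 38.6 CPM in M9 and M10, and both values of the second pair lay within the first (log2 fold change -0.06 ± 0.17 SE, adjusted p = 0.808). Ifih1 (MDA5, chromosome 2, 62595798 to 62646255), which detects long double-stranded RNA, was at 25.7, 21.7, 38.1 and 28.4 CPM in M7 to M10. Its groups did not overlap, and the difference of 0.49 did not pass (standard error 0.21, adjusted p = 0.109). Ifih1 stood at 0.17 without M9 and at 0.70 without M10. Dhx58 (LGP2, chromosome 11, 100694884 to 100704271), a regulator of the other two, was at 13.2, 8.50, 25.3 and 16.5 CPM in M7 to M10, likewise without overlap (log2 fold change 0.95 ± 0.32 SE, adjusted p = 0.0553). Dhx58 was called by the DESeq2 Wald test (0.91, adjusted p = 0.0437) and with the filter of 1 count (0.93, adjusted p = 0.00328). It was not called with library size only (0.42, adjusted p = 0.364), and it stood at 1.23 without M10, 0.66 without M8 and 0.52 without M9.

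Isg15 and Usp18 had the widest spread between libraries of one genotype among the 6 role groups, with median log2 ratios of 1.09 for M7 over M8 and 1.19 for M9 over M10. Isg15, a ubiquitin-like protein that is attached to other proteins (chromosome 4, 156199424 to 156200818), was at 25.7 and 13.6 CPM in M7 and M8 and at 65.9 and 31.9 CPM in M9 and M10. The groups did not overlap, although the lower library labelled SYK KO lay close to the higher SYK WT library, and the log2 fold change was 1.32 ± 0.42 (SE, adjusted p = 0.0486). The call for Isg15 was lost with DESeq2 size factors (adjusted p = 0.0602), with mitochondrial genes left out (adjusted p = 0.0613) and with library size only (adjusted p = 0.201). Its log2 fold change was 0.92 without M8 and 0.61 without M9. Usp18, which removes ISG15 and dampens the type I receptor (chromosome 6, 121245906 to 121270917), was at 14.6 and 6.10 CPM in M7 and M8 and at 20.1 and 8.01 CPM in M9 and M10. The groups overlapped, and M7 and M9 were the high library of each genotype (log2 fold change 0.44 ± 0.55 SE, adjusted p = 0.552). Usp18 stood at 0.97 without M10 and at -0.46 without M9.

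Of the 16 antiviral effectors, 10 rose (62.5%, against 22.7% of all genes) and Ifi44 fell (6.25%, against 16.7%), and their median of 1.38 turned to -1.33 with macrophage scaling. The oligoadenylate synthetase family, whose active enzymes make the oligoadenylates that activate RNase L, had 4 of 5 members called higher (80%, against 22.7% of all genes) and a median of 2.21 (-0.46 with macrophage scaling). Oas3 (chromosome 5, 120753098 to 120777661) was at 3.28 and 2.12 CPM in the SYK WT libraries and at 28.6 and 18.2 CPM in the libraries labelled SYK KO. It had the largest change of the effectors, 8.64-fold (log2 fold change 3.11 ± 0.36 SE, adjusted p = 0.00194), and stood at 0.40 with macrophage scaling. Oasl1, which restrains Irf7 translation (chromosome 5, 114923240 to 114937915), was at 6.12, 3.50, 28.5 and 26.1 CPM in M7 to M10 (log2 fold change 2.50 ± 0.31 SE, adjusted p = 0.00240). Oas2 and Oas1a also rose, by 2.21 and 1.84 on the log2 scale. Oasl2 (chromosome 5, 114896936 to 114912234) was at 30.4, 18, 54.4 and 32.6 CPM in M7 to M10, where the groups stood only just apart and the change did not pass (log2 fold change 0.85 ± 0.33 SE, adjusted p = 0.0876). Oasl2 was called with the filter of 1 count (0.83, adjusted p = 0.000994) and not with library size only (0.32, adjusted p = 0.509). It stood at 1.27 without M7, 1.18 without M10, 0.51 without M8 and 0.34 without M9. The neighbour Oas1g can share reads with Oas1a, and the counts of both genes summed gave 1.57 ± 0.31 (SE, adjusted p = 0.0106).

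Rsad2 and the Ifit genes are classical early products of type I interferon. Rsad2 and 2 of the 3 Ifit genes (66.7%, against 22.7% of all genes) were called higher in the libraries labelled SYK KO, with levels that were uneven between M9 and M10. Rsad2 (viperin, chromosome 12, 26442746 to 26456452), which makes a chain-terminating nucleotide, was at 29.9 and 19.9 CPM in M7 and M8 and at 233 and 90.9 CPM in M9 and M10. Both libraries labelled SYK KO were well above the SYK WT libraries, and M9 stood 2.57-fold above M10 (log2 fold change 2.70 ± 0.46 SE, adjusted p = 0.00646). Ifit2 (chromosome 19, 34550694 to 34576419) was at 24.1 and 14.4 CPM and at 147 and 58.0 CPM in the same order, with a log2 fold change of 2.41 ± 0.47 (SE, adjusted p = 0.0101). Without M9 the change was 1.78 for Rsad2 and 1.5 for Ifit2. Ifit1 (chromosome 19, 34640871 to 34650009), which binds viral RNA that lacks the cap methylation of the host, was at 27.5, 16, 80.2 and 48.9 CPM in M7 to M10 (log2 fold change 1.57 ± 0.34 SE, adjusted p = 0.0134). Its call was lost with library size only (1.05, adjusted p = 0.0637), and without M8 its change was 1.22. Ifit3, which stabilizes IFIT1 (chromosome 19, 34583531 to 34588731), was at 42.3 and 19.0 CPM in M7 and M8 and at 99.9 and 48.6 CPM in M9 and M10. M10 lay just above M7, and the change of 1.27 did not pass (standard error 0.46, adjusted p = 0.0687). Ifit3 was called by the DESeq2 Wald test (1.24, adjusted p = 0.00983) and with the filter of 1 count (1.26, adjusted p = 8.68e-08). It was not called with library size only (0.76, adjusted p = 0.252), and it stood at 1.97 without M7, 1.72 without M10, 0.80 without M8 and 0.57 without M9. Summing Ifit3 with its near-identical neighbour Ifit3b left the value at 1.28 (adjusted p = 0.0698). With macrophage scaling the median of the 3 Ifit genes turned from 1.57 to -1.14.

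The other 8 effectors went in different directions. Ifi44 (chromosome 3, 151730922 to 151749960), a cytoplasmic protein first described as associated with microtubular structures, was at 26.7 and 15.3 CPM in M7 and M8 and at 5.53 and 6.97 CPM in M9 and M10. Both libraries labelled SYK KO were below both SYK WT libraries, a 3.37-fold lower level (log2 fold change -1.75 ± 0.33 SE, adjusted p = 0.00920), and without M7 the change was -1.30. Mx2 (chromosome 16, 97535308 to 97560900), a dynamin-like GTPase, was at 7.69, 5.09, 3.16 and 3.0 CPM in M7 to M10. Mx2 also lay lower in both libraries labelled SYK KO without passing (log2 fold change -1.05 ± 0.38 SE, adjusted p = 0.0678). Mx2 was called lower with library size only (-1.59, adjusted p = 0.0191), with at least 10 counts in every library (adjusted p = 0.0416), without M9 (adjusted p = 0.0135) and without M10 (adjusted p = 0.0258). Mx1 (chromosome 16, 97447035 to 97462907), its paralog, was at 11.9, 4.84, 14.2 and 8.55 CPM in M7 to M10, and the groups overlapped (log2 fold change 0.44 ± 0.47 SE, adjusted p = 0.496). Xaf1 (chromosome 11, 72301629 to 72313733), a pro-apoptotic zinc finger protein, was at 12.0, 9.44, 15.8 and 15.0 CPM. Its difference of 0.53 did not pass (standard error 0.24, adjusted p = 0.120). The change of Xaf1 was 0.70 without M7, 0.36 without M8, 0.40 without M9 and 0.58 without M10. For these fits no call is stated. Xaf1 was called lower with macrophage scaling (-2.16, adjusted p = 0.000230) and with pan-leukocyte scaling (-3.13, adjusted p = 5.77e-07). Trim30a, a ubiquitin ligase of the TRIM family, rose by 1.48 ± 0.22 (SE, adjusted p = 0.00411). Bst2, or tetherin, which holds budding virus at the membrane, rose by 0.99 (adjusted p = 0.0239) and Ifi35 by 0.64 (adjusted p = 0.0285). Ifi35 lost its call by the DESeq2 Wald test (adjusted p = 0.0725), and with library size only neither Bst2 nor Ifi35 was called (adjusted p = 0.241 and 0.70). Bst2 stood at 0.74 without M8 and 0.62 without M9, and Ifi35 at 0.68 without M7 and 0.58 without M8.

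The guanylate-binding proteins, GTPases that attack the membranes of intracellular microbes, had the largest median of the 6 role groups. All 8 of them rose with TMM scaling (background 22.7% of all genes), their median log2 fold change being 1.96, and all 8 lay without overlap above the SYK WT libraries (background 38.0%), whereas with macrophage scaling the median was -0.72 and Gbp5 and Gbp8 alone stayed above 0. Gbp8 (chromosome 5, 105014150 to 105139540) was at 1.71 and 1.22 CPM in M7 and M8 and at 18.8 and 21.5 CPM in M9 and M10. This 13.6-fold difference was the largest of the 39 genes (log2 fold change 3.77 ± 0.30 SE, adjusted p = 0.000843), and it was the one member that stayed above 0 under both marker scalings, at 1.13 (adjusted p = 0.120) and 0.15, without a call under either. Gbp5 (chromosome 3, 142493978 to 142522344), which promotes inflammasome assembly, was at 3.39, 2.6, 35.4 and 21.3 CPM in M7 to M10, a 9.44-fold difference (log2 fold change 3.24 ± 0.33 SE, adjusted p = 0.00149). Gbp2 (chromosome 3, 142620602 to 142638008) was the most abundant of the family in CPM per kilobase of exon, at 25.8 and 17.6 CPM in the SYK WT libraries and at 98.4 and 98.9 CPM in the libraries labelled SYK KO. The last pair was nearly equal, and the log2 fold change was 2.18 ± 0.22 (SE, adjusted p = 0.00139).

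The smallest change of the family was that of Gbp6 (chromosome 5, 105270702 to 105293698), at 11.1 and 8.34 CPM in M7 and M8 and at 23.1 and 20.4 CPM in M9 and M10. The groups did not overlap (log2 fold change 1.16 ± 0.24 SE, adjusted p = 0.0115), and the call was lost with library size only (0.63, adjusted p = 0.0999). Without M8 the change of Gbp6 was 0.96. The family lies in a cluster on chromosome 3 (Gbp2, Gbp3, Gbp5 and Gbp7) and in one on chromosome 5 (Gbp4, Gbp6, Gbp8 and Gbp9). With TMM scaling the median was 1.96 in the first and 2.01 in the second, with 4 of 4 genes called in each (background 22.7%). With macrophage scaling the medians were -0.72 and -0.65, and 0 of 4 genes were called higher in each (background 0.894%). The annotated spans of Gbp4, Gbp8 and Gbp9 overlap and end close to each other, so their reads may be divided uncertainly among them. Their counts summed gave a log2 fold change of 2.41 ± 0.25 (SE, adjusted p = 0.00156), and Gbp6 summed with the sparsely read Gbp10 gave 1.18 (adjusted p = 0.0106).

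The immunity-related GTPases, which act on the vacuoles of intracellular parasites and on autophagy, had 3 of 5 members called higher (60%, against 22.7% of all genes) and a median of 1.68 (-1.02 with macrophage scaling). Iigp1 (chromosome 18, 60376027 to 60392634) was at 11.3 and 8.42 CPM in the SYK WT libraries and at 39.6 and 35.4 CPM in the libraries labelled SYK KO. The libraries of each genotype were close to each other, and the log2 fold change was 1.92 ± 0.22 (SE, adjusted p = 0.00185). Igtp and Irgm1 rose by 1.91 (adjusted p = 0.00140) and 1.68 (adjusted p = 0.00556). Irgm2 (chromosome 11, 58199618 to 58222782), whose annotated span covers most of Igtp, was at 14.4, 10.4, 28.5 and 17.9 CPM in M7 to M10. Its groups did not overlap, and the change of 0.90 missed the threshold (standard error 0.30, adjusted p = 0.0541). By the DESeq2 Wald test Irgm2 was called (0.86, adjusted p = 0.0477), and with the filter of 1 count (0.88, adjusted p = 0.00383) as well. It was not called with library size only (0.38, adjusted p = 0.396), and it stood at 1.21 without M10, 0.67 without M8 and 0.44 without M9. Whether Irgm2 and Igtp, which share the near-identical stretch printed above, differ in their change was not tested. Tgtp1 (chromosome 11, 48985327 to 48994172) was read with 16 and 19 counts in M7 and M8 and with 38 and 44 counts in M9 and M10, the lowest level of the 39 genes, and did not pass (log2 fold change 1.64 ± 0.57 SE, adjusted p = 0.0627). Tgtp1 was called with at least 10 counts in every library (adjusted p = 0.0222), and it stood at 1.73 without M9 and 1.45 without M10. Its near-identical neighbour Tgtp2 held more reads, and the counts of both genes summed rose by 2.47 ± 0.30 (SE, adjusted p = 0.00225).

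The guanylate-binding proteins and immunity-related GTPases together had 11 of 13 members called higher (84.6%, against 22.7% of all genes), and their median was 1.74 (-0.97 with macrophage scaling). The other 26 genes had 13 called higher (50%, against the same 22.7%) and Ifi44 called lower (3.85%, against 16.7%), and their median was 0.97 (-1.75 with macrophage scaling). Their summed levels were 142 and 101 CPM in M7 and M8 and 492 and 405 CPM in M9 and M10 for the 13 genes, against 669, 473, 1456 and 921 CPM for the 26 genes. Whether these groups differ was not tested.

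Levels of different genes were compared as mean CPM per kilobase of exon. In the SYK WT libraries Bst2 stood first at 62.7, Isg15 second at 26.0 and Ifit3 next at 17.6. These genes kept the first 3 places in the libraries labelled SYK KO, at 124, 64.7 and 42.5. Below them the order changed. Gbp2 moved from place 7 to 4 (8.63 to 39.2), Rsad2 from 12 to 5 (5.73 to 37.4) and Oasl1 from 29 to 15 (1.85 to 10.5). Stat2 moved from place 6 to 19 (9.34 to 6.83), Ddx58 from 11 to 26 (5.89 to 5.66) and Ifi44 from 20 to 37 (3.43 to 1.02). Tgtp1 held the last place in both, at 0.212 and 0.662.

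Libraries that carry the same label also differed in these genes, mostly in one direction. M7 was above M8 for 37 of the 39 genes and M9 was above M10 for 33, and the same 33 genes were higher in M7 and in M9. Of 15744 genes with counts in every library, M7 was above M8 for 8334, M9 was above M10 for 7827, and 4727 were higher in both. The median log2 ratio was 0.56 for M7 over M8 and 0.47 for M9 over M10, whereas over 15744 genes with counts in every library these medians were 0.022 and -0.0035. Usp18 differed 2.39-fold between M7 and M8 and 2.51-fold between M9 and M10, and Ifit3 differed 2.23-fold and 2.06-fold. Gbp2 in contrast was 1.47-fold higher in M7 than in M8 and equal in M9 and M10 to within 1% (ratio 0.995). Across the 39 genes, which share their libraries and are not independent replicates, the 2 ratios had a Pearson r of 0.556 and a Spearman rho of 0.536, against 0.167 and 0.190 across all 15744 genes. The summed macrophage markers were higher in M7 than in M8 and in M9 than in M10 as well, as given above, and their part in these ratios was not tested.

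**Figure D3:**
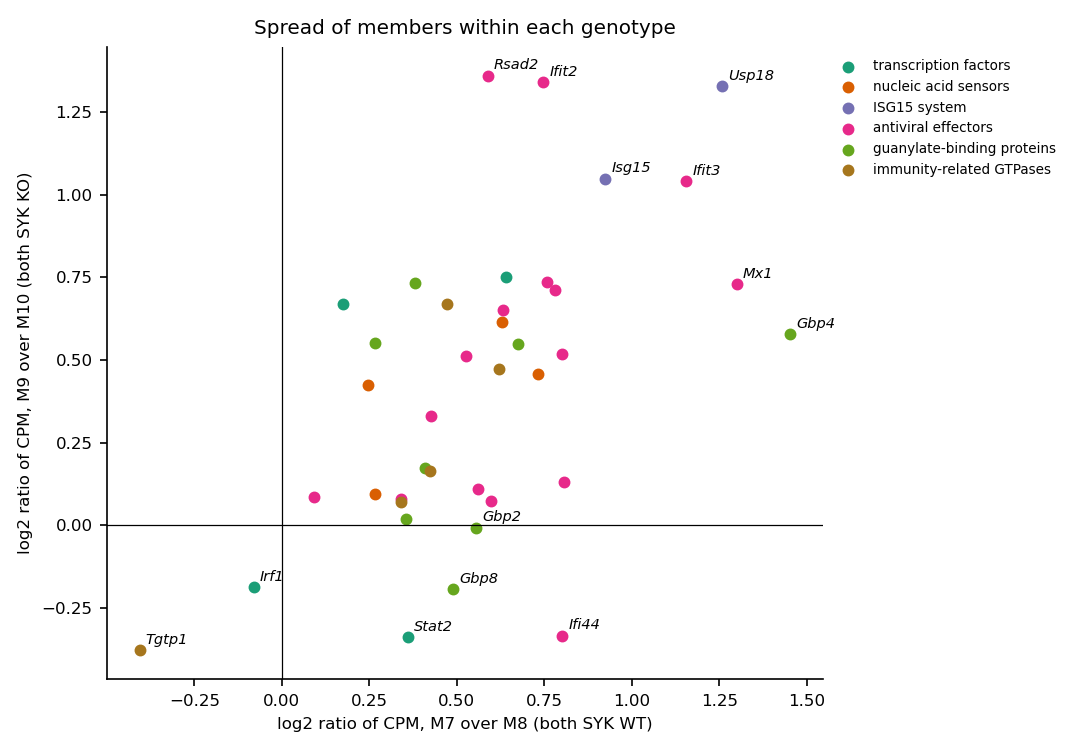
Log2 ratio of CPM between the 2 SYK WT libraries (M7 over M8, horizontal axis) and between the 2 libraries labelled SYK KO (M9 over M10, vertical axis), with 1 point per gene coloured by role. The points of 33 of the 39 genes lie in the upper right quadrant, with Usp18, Isg15 and Ifit3 far from 0 on both axes and Tgtp1 and Irf1 below 0 on both.

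The other genes of the pathway showed in part the same direction with TMM scaling. Of 7 receptor and kinase genes, 4 rose (57.1%, against 22.7% of all genes), and with macrophage scaling all 7 fell, as did 86.4% of all genes. Ifnar2 rose by 1.73 ± 0.20 (SE, adjusted p = 0.00186), Ifngr1 by 1.33 (adjusted p = 0.00385) and Ifnar1 by 0.55 (adjusted p = 0.0375), while Jak1, the kinase shared by both receptors, stood at 0.20 (adjusted p = 0.386). Of 8 other STAT and IRF factors, 6 rose (75%, against the same 22.7%), whereas with macrophage scaling 0 rose and 4 fell (background 86.4%). Irf5, a factor of inflammatory macrophages, rose by 3.01 (adjusted p = 0.00135) and Irf2 by 0.72 (adjusted p = 0.0153), while Stat3 stood at -0.30 (adjusted p = 0.211).

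Of 6 negative regulators, 2 rose (33.3%, against 22.7% of all genes). Ptpn6, a phosphatase of blood cells, rose by 3.32 (adjusted p = 0.000486), while Socs3 stood at -0.50 (adjusted p = 0.132), Ptpn11 at -0.16 (adjusted p = 0.450) and Pias1 at 0.47 (adjusted p = 0.0540). Of 10 upstream sensors and adaptors, 7 rose (70.0%). Tlr7, the endosomal receptor for single-stranded RNA, rose by 3.48 (adjusted p = 0.00139), its adaptor Myd88 by 1.39 (adjusted p = 0.00229), Tmem173 (STING) by 0.73 (adjusted p = 0.0119) and Mavs by 0.53 (adjusted p = 0.0374). With macrophage scaling 7 of these 10 genes and 5 of the 6 regulators fell, against 86.4% of all genes, so that these shares do not stand above the background. Irf5, Ptpn6 and Tlr7 then stood at 0.27, 0.58 and 0.77, none of them called.

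None of the 8 interferon genes examined passed the expression filter, and 6 of them had no count in any library. Ifnb1, the gene of interferon-beta, was read with 6 and 3 counts in M7 and M8 and with 13 and 10 counts in M9 and M10. Ifng, the gene of interferon-gamma, had 5 counts in M9 and 0 in the other libraries. Ifnb1 thus lay above both SYK WT libraries in both libraries labelled SYK KO, at counts too low for the filter, and no test was made of either gene.

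Of 50 further interferon-stimulated genes, 48 were tested, 25 rose (52.1%, against 22.7% of all genes) and 3 fell (6.25%, against 16.7%). Their median of 0.86 turned to -1.89 with macrophage scaling, where that of all genes was -2.69. Among the 4 most abundant, Samhd1, which degrades nucleotides needed by viruses, rose by 1.67 (adjusted p = 0.00180) and Ifitm2 by 1.19 (adjusted p = 0.00952), while Ly6e stood at 0.28 (adjusted p = 0.269) and Lgals3bp at 0.07 (adjusted p = 0.791). The 3 that fell were Helz2 (-1.32, adjusted p = 0.00180), Isg20 (-0.84, adjusted p = 0.0330) and Adar (-0.62, adjusted p = 0.0294), which were named after their values were seen. Helz2 was at 93.5 and 94.2 CPM in the SYK WT libraries and at 38.6 and 36.5 CPM in the libraries labelled SYK KO, so that the groups were far apart.

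**Figure D4:**
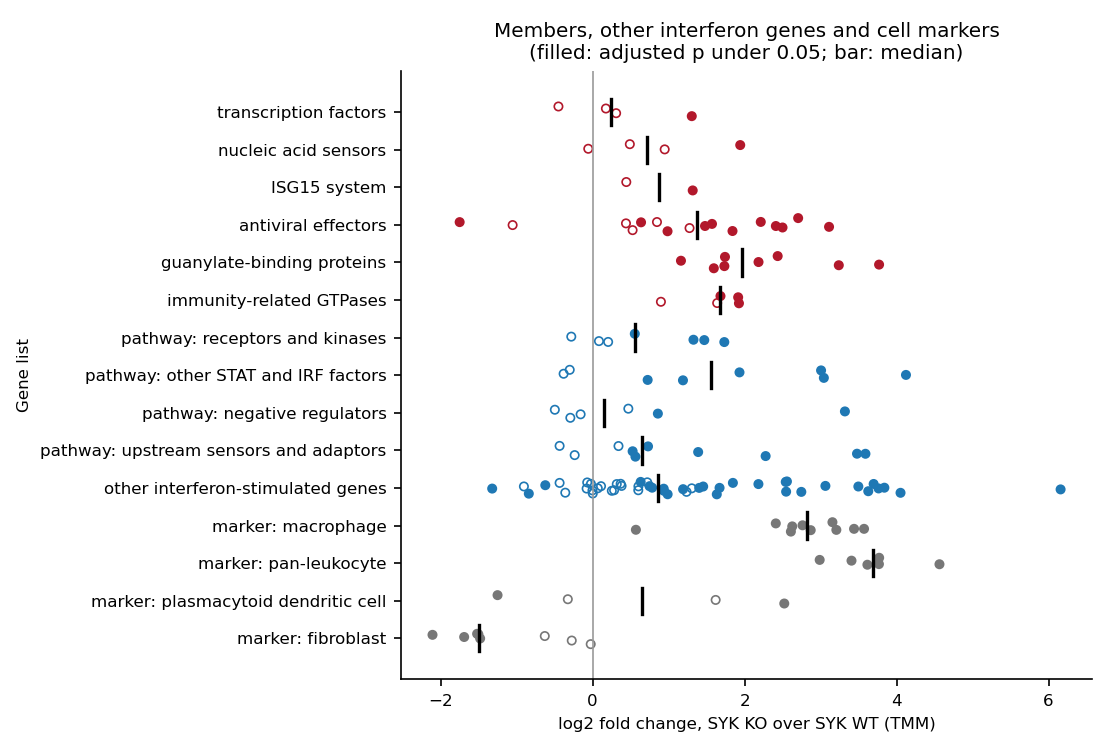
Log2 fold change (libraries labelled SYK KO over SYK WT, TMM scaling) of each tested gene in the 6 role groups (red), the other interferon pathway lists (blue) and 4 marker lists (grey); bars are medians and filled points have an adjusted p under 0.05. The medians run from 0.24 for the transcription factors to 1.96 for the guanylate-binding proteins, below the 2.82 of the macrophage markers and the 3.69 of the pan-leukocyte genes, and with macrophage scaling the medians of all 6 role groups lie below 0.

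Markers of some other cells also moved with the genotype label. With TMM scaling the medians were 3.65 for 6 dendritic cell markers (4 called higher, 66.7%), 3.12 for the 5 tested neutrophil markers (5 called, 100%) and 3.02 for 6 T cell markers (4 called, 66.7%), against 22.7% of all genes called higher. The summed T cell markers reached only 6.12 and 4.68 CPM in M7 and M8 and 11.5 and 14.7 CPM in M9 and M10, and the neutrophil markers 24.6, 39.4, 407 and 201 CPM. Plasmacytoid dendritic cells are a main source of type I interferon. Of their 6 markers 4 were tested, 1 rose (25%, near the 22.7% of all genes) and 1 fell (25%, against 16.7%). The list summed to 660, 672, 412 and 538 CPM in M7 to M10, while the defining Siglech was read with 10, 2, 8 and 8 counts. Almost none of that sum thus came from Siglech, and which cells gave the rest was not tested. Markers of NK cells, which make interferon-gamma, summed to 8.31, 11.8, 9.08 and 11.6 CPM, and none of their 3 tested genes was called by edgeR, 0 of them at an unadjusted p under 0.05, with adjusted p-values from 0.565 to 0.812. The part of these cells in the interferon-stimulated genes was not tested.

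The members were last grouped by the letters in their promoter windows. Of the 19 members with the ISRE letters, 13 rose (68.4%), and the median was 1.64. Of the 9 members with a window and without the letters, 4 rose (44.4%) and Ifi44 fell, with a median of 0.64. Tested genes outside the list were grouped in the same way, and no difference between groups was tested. The further interferon-stimulated genes described above, of which 52.1% rose, were not taken out of these other genes. How many of them hold the letters was not counted. The 436 other tested genes with the ISRE letters had 35.6% called higher and 13.5% called lower (median 0.28), against 23.9% and 16.6% of 11059 genes without them (median 0.06). With the stricter letters, the 39 other genes that hold them had 48.7% called higher and 7.69% called lower, with a median of 0.88. The 11456 other genes without them had 24.2% and 16.5% (median 0.07). Among the members, 9 of 11 with the stricter letters rose (81.8%) and 8 of 17 without them (47.1%). For the GAS letters, 7 of the 10 members that hold them rose (70.0%, median 1.69) and 10 of the 18 that do not (55.6%, median 1.31), whereas among other tested genes 22.9% of 950 with the letters and 24.4% of 10545 without them were called higher. All of these shares are with TMM scaling. With macrophage scaling and with pan-leukocyte scaling 0 of the 39 members were called higher (background 0.894% and 0.304%). These shares are descriptions, since genes of one pathway are not independent of each other.

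Position within the window varied. The ISRE letters nearest the start began 14 bases before the start in Oas1a, 34 in Igtp, 66 in Isg15, 75 in Oas3, 85 in Ifit1, 120 in Rsad2 and 165 in Gbp5. Stat2, which lay lower in the libraries labelled SYK KO, held the letters farthest from the start, 222 bases before it. Ddx58 and Ifih1, neither of them called, held theirs after the start, at 2 and 32 bases from it. The strongly changed Ifit2 (2.41) and Oasl1 (2.50) held no ISRE letters in these windows, which says only that the letters are not in this stretch.

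**Figure D5:**
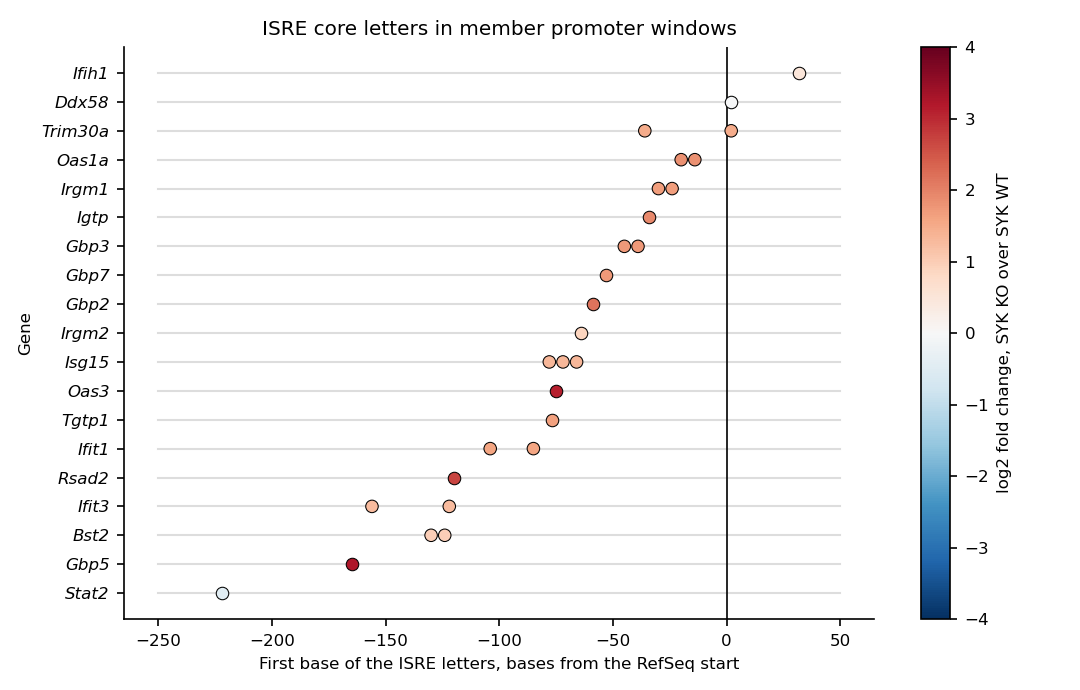
First base of each ISRE core match in the promoter windows of the 19 members that hold it, in bases from the RefSeq start (vertical line), coloured by log2 fold change (libraries labelled SYK KO over SYK WT, TMM scaling). Most matches lie within the 165 bases before the start, with Stat2 farther out and Ifih1, Ddx58 and 1 copy in Trim30a after the start.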

How the data were processed

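The authors mapped paired reads to mm10, and the values they deposited are raw whole-number counts for each Ensembl gene. The submitters' processing notes name STAR 2.6.1d and Salmon 1.4.0. How Salmon's estimates became whole-number counts, and whether strand was used, is not given in the sources used here. The study's methods describe single reads in triplicate, whereas the labels give paired reads and 2 libraries per genotype. Symbols, positions and exon lengths came from GENCODE M21, which matched 54495 of 54532 genes.

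Counts were analysed in R 4.3.3 with edgeR 4.0.16 (filterByExpr, TMM and the quasi-likelihood test without the robust option), and p-values were adjusted by Benjamini-Hochberg over 16451 genes and a threshold of 0.05. TMM factors were 1.22, 1.19, 0.876 and 0.787 for M7 to M10. Counts within a genotype spread beyond sampling noise (chi-square per degree of freedom 50.6 in SYK WT and 168 in SYK KO). CPM are given per library. Standard errors were worked back from edgeR's test, as the absolute log2 fold change over the square root of its F statistic. They therefore restate that test and are not a separate measure of precision. The test was also run on simulated counts, and the outcome is not given here.

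The members and lists were chosen with earlier results of these data known. Values in every library were given, in each role, for the members with the largest and the smallest absolute log2 fold change and for each member that did not pass; from each pathway list the 4 most abundant genes were named, with Ifnb1 and Ifng, and 1 gene of this selection is not reported here. Some further members were also given in full. Alternatives were DESeq2 1.42.0 size factors and its Wald test, library size only, scaling to 10 macrophage or 6 pan-leukocyte genes, a filter of 1 count in total, a filter of 10 counts per library, mitochondrial genes left out, neighbours summed, and each library left out.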

Additional observations from a re-analysis of the deposited data

How the results depend on the processing

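The 2 marker scalings turned the sign of the members' median, and library size only did not. Against 24 members higher and 1 lower with TMM, macrophage scaling gave 0 and 21, pan-leukocyte scaling 0 and 35, and library size only 18 and 3. The medians were -1.23, -2.19 and 0.95 (1.48 with TMM). Those of all genes were -2.69, -3.65 and -0.52 (0.016 with TMM), so the members lay above all genes in each setting. Over all genes the same settings gave 147, 50 and 1677 higher and 14220, 15293 and 5411 lower, and over the pathway lists 3, 1 and 27 higher (44 with TMM) and 56, 64 and 13 lower (3 with TMM). With macrophage scaling the sign turned for Irf1 -2.53, Irf7 -1.42, Irf9 -2.46, Ifih1 -2.24, Dhx58 -1.77, Zbp1 -0.75, Isg15 -1.42, Usp18 -2.29, Mx1 -2.23, Ifit1 -1.14, Ifit2 -0.36, Ifit3 -1.44, Oas1a -0.85, Oas2 -0.46, Oasl1 -0.15, Oasl2 -1.87, Rsad2 -0.088, Bst2 -1.73, Ifi35 -2.08, Xaf1 -2.16, Trim30a -1.23, Gbp2 -0.48, Gbp3 -0.97, Gbp4 -0.21, Gbp6 -1.53, Gbp7 -1.0, Gbp9 -1.08, Irgm1 -1.02, Irgm2 -1.84, Igtp -0.77, Iigp1 -0.76, Tgtp1 -1.06. With pan-leukocyte scaling it turned for Irf1 -3.49, Irf7 -2.38, Irf9 -3.40, Ifih1 -3.20, Dhx58 -2.73, Zbp1 -1.72, Isg15 -2.38, Usp18 -3.25, Mx1 -3.21, Ifit1 -2.11, Ifit2 -1.31, Ifit3 -2.41, Oas1a -1.82, Oas2 -1.43, Oas3 -0.57, Oasl1 -1.13, Oasl2 -2.83, Rsad2 -1.03, Bst2 -2.69, Ifi35 -3.03, Xaf1 -3.13, Trim30a -2.19, Gbp2 -1.45, Gbp3 -1.94, Gbp4 -1.20, Gbp5 -0.46, Gbp6 -2.49, Gbp7 -1.95, Gbp9 -2.05, Irgm1 -1.99, Irgm2 -2.79, Igtp -1.74, Iigp1 -1.73, Tgtp1 -2.01. With library size only it turned for Irf1 -0.36, Irf9 -0.21, Ifih1 -0.036, Usp18 -0.069, Mx1 -0.087, Xaf1 -0.0094.

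At least 10 counts in every library gave 2 members lower, Mx2 being added. The filter of 1 count hardly moved the changes but moved edgeR's adjusted p-values. Ifit3 went from 1.27 (adjusted p = 0.0687) to 1.26 (adjusted p = 8.68e-08), and Tgtp1 from 1.64 (adjusted p = 0.0627) to 1.62 (adjusted p = 0.0860). The calls of Dhx58, Ifit3, Oasl2 and Irgm2 with that filter thus do not rest on larger changes. The stricter ISRE letters gave 11 member windows in place of 19. With each library left out in turn, members called higher ran from 18 to 33 and lower from 0 to 3, the median from 1.08 to 1.78, all genes from 1478 to 5010 higher and from 807 to 4745 lower, and pathway genes from 25 to 50 higher and from 1 to 10 lower. Where 1 library is left in a group, it is assumed to vary like the other group. The lowest counts of genes and of pathway genes called higher came without M8. Signs turned for genes that were not called: Irf9 ran from -0.15 to 0.62, Ddx58 from -0.19 to 0.079, Usp18 from -0.46 to 1.20 and Mx1 from -0.077 to 1.23. The causes were not tested. No paired analysis was possible because the groups share no replicate numbers.

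Relative to all transcripts Syk went against the labels (2.80), by about the macrophage marker median (2.82), and with macrophage scaling it stood at 0.087. Lyz2, the gene that drives the Cre, stood at -4.13 with TMM scaling and at -6.68 with macrophage scaling. Whether the labels are right was not tested. The level of Syk, 2 libraries per genotype, unequal marker levels and up to 15.9% mitochondrial counts limit what these values can say about SYK deletion.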

Other observations

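Cxcl9, the chemokine of interferon-gamma response, was chosen here after its values were seen. It was at 1.57 and 1.38 CPM in M7 and M8 and at 122 and 90.0 CPM in M9 and M10, and its log2 fold change of 6.16 ± 0.25 (SE, adjusted p = 0.000486) was the largest of the pathway lists. It was the one pathway gene called higher with both marker scalings, at 3.43 (adjusted p = 2.95e-08) with macrophage scaling and 2.48 with pan-leukocyte scaling. Ifi209, a member of the cytosolic DNA-binding PYHIN family, was at 4.52, 2.04, 68.9 and 40.5 CPM in M7 to M10, and Slfn2, of the Schlafen family, at 25.6, 16.8, 335 and 240 CPM. These 2 genes were also called higher with macrophage scaling, at 1.37 (adjusted p = 0.0203) and 1.06 (adjusted p = 0.0418), and not with pan-leukocyte scaling.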
